A study of Mus musculus with 14 samples.

Results

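Effector cytokines and chemokines, the signalling proteins that activated CD8+ T cells release or display, were described here by 10 mouse genes. They were Ifng, Tnf, Il2, Ccl3, Ccl4, Ccl5, Ccl9, Xcl1, Ltb and Tnfsf8, a list of secreted or TNF-family ligands matched to the array by the platform's gene symbols. Each gene had 1 probe set, so 10 of 34760 probe sets and 10 of 19937 named genes were taken. A gene was tested where its signal exceeded its array's 40th percentile on 2 or more arrays, which kept 9 of these genes among 14438, and Il2 was not tested.

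The 14 arrays measured RNA of effector CD8+ T cells of C57BL/6J strain, sorted on day 6 after infection with Listeria carrying ovalbumin. The cells came from fetal liver chimeras, mice whose blood system was grown from donor fetal liver, and had been moved into congenic recipients the day before infection. The groups were wild-type (WT) KLRG1hi cells with 3 arrays, and KLRG1lo cells labelled Id2KO with 2, Id2KOBimKO with 2, BimKO with 2 and WT with 5. All carried the OT-I receptor for ovalbumin by their labels, except that the label of the Id2KOBimKO cells does not name it. KLRG1 is a lectin-like receptor that marks terminal effector cells, Id2 is an inhibitor of the DNA-binding E proteins, and Bim, encoded by Bcl2l11, promotes cell death. Nothing says whether replicates came from separate mice or from pools, so the spread behind every p-value is that of these samples and may be technical.

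Interferon gamma activates macrophages and raises antigen presentation, TNF and lymphotoxin beta signal through TNF-family receptors, and interleukin 2 drives T cell growth. Ccl3, Ccl4 and Ccl5 are CC chemokines that recruit other leukocytes, and Xcl1 attracts the cross-presenting dendritic cells that bear Xcr1. In CD8+ T cells, Ccl5 message is known to accumulate and stay high after activation, while Ifng, Tnf and Il2 messages are made and removed quickly around antigen contact.

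Stretches of 250 bases before the gene start, with the gene's strand read 5′ to 3′, were available for 5 of the 6 genes that passed the test between the WT populations (RefSeq, build GRCm38.p6). They are shown because E proteins, which Id2 holds back, bind E boxes, CANNTG, and every E box is in capitals.
Ifng, chr10:118440796-118441045, plus strand: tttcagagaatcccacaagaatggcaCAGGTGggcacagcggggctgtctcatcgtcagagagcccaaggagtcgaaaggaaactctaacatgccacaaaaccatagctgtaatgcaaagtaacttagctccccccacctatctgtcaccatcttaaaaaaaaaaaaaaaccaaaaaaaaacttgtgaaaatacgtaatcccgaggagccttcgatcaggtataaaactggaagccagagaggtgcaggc
Ccl3, chr11:83649379-83649628, minus strand: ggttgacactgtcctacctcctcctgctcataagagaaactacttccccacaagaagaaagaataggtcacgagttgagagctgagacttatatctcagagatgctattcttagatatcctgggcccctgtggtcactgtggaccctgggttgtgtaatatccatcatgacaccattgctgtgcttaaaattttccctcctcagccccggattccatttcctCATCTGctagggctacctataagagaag
Ccl9, chr11:83578637-83578886, minus strand: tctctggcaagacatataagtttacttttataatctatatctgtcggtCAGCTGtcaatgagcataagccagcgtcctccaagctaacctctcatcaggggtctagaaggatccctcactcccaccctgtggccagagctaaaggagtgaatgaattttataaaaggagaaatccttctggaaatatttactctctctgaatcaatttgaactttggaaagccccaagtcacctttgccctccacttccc
Ltb, chr17:35194257-35194506, plus strand: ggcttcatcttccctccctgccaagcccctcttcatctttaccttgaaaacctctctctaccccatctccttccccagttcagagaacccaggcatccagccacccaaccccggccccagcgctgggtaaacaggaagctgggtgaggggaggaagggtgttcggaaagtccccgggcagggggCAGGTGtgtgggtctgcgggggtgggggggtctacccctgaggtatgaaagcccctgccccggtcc
Tnfsf8, chr4:63861285-63861534, minus strand: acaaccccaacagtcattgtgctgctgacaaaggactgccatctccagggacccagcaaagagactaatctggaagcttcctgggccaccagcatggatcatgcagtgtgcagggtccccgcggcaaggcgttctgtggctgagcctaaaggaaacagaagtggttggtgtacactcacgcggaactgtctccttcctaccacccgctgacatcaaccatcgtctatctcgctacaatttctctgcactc
An E box lay at bases -224 to -219 in Ifng (CAGGTG), -28 to -23 in Ccl3 (CATCTG), -202 to -197 in Ccl9 (CAGCTG) and -66 to -61 in Ltb (CAGGTG), counted back from the gene start. Tnfsf8 held none in this window. The letters CANNTG, which read the same on both strands, were found in 66.2% of 32851 promoters of this length, so their presence in 4 of the 5 stretches is a description. The letters CACGTG, 1 form of the E box, were in none of the 8 members' stretches searched and in 6.02% of all. The core GGAAA of NFAT, searched on both strands, was in all 8 members' stretches and in 55.6% of all, and none of these matches overlapped an E box.

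Medians of the linear signal lay between 49.2 and 56.8 over the 14 arrays, and their number limits the precision. Values below are log2 of the deposited signal, and a difference is said to pass where limma's p, adjusted by Benjamini-Hochberg over all 14438 genes, was under 0.05. Id2 read 9.88 and 9.73 on the Id2KO arrays and 9.84 and 9.64 on the Id2KOBimKO arrays, against 10.75 and 10.93 on the BimKO arrays and 10.78 to 11.16 on the WT KLRG1lo arrays. Bcl2l11 read 7.59 and 8.01 on the Id2KOBimKO arrays and 7.36 and 7.66 on the BimKO arrays, against 7.44 to 7.92 on the WT KLRG1lo arrays. It was thus not lower on the arrays whose labels name Bim loss, 1 of which exceeded every WT KLRG1lo array, and Bim status rests on those labels. Male-linked Eif2s3y was at 7.39 and 8.20 on the Id2KO arrays and at most 3.66 on every other array, so sex and Id2KO status cannot be told apart in comparisons with those arrays. Cd8b1 was between 12.26 and 12.93 on all arrays, and Cd4 between 4.94 and 5.96, near the 40th percentile of the arrays (5.14 to 5.37).

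The WT populations were compared to describe how the ligands differ between KLRG1hi and KLRG1lo effector cells. Ifng and the chemokine genes Ccl3, Ccl5 and Ccl9 were higher in KLRG1hi cells, by 1.69-fold to 3.15-fold, and the TNF-family genes Ltb and Tnfsf8 were lower, by 2.05-fold and 2.55-fold. Tnf, Ccl4 and Xcl1 did not pass. So 4 of the 9 tested genes were higher and 2 lower, where 0.679% and 0.263% of all genes tested were (0.942% in either direction). All 9 were separate between the groups, with every KLRG1hi array above every WT KLRG1lo array for 5 and below for 4, where 2.41% and 1.77% of all genes tested were (4.18% in all). The list was drawn up with results of these arrays known, so its share is not independent evidence.

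**Figure D1:**
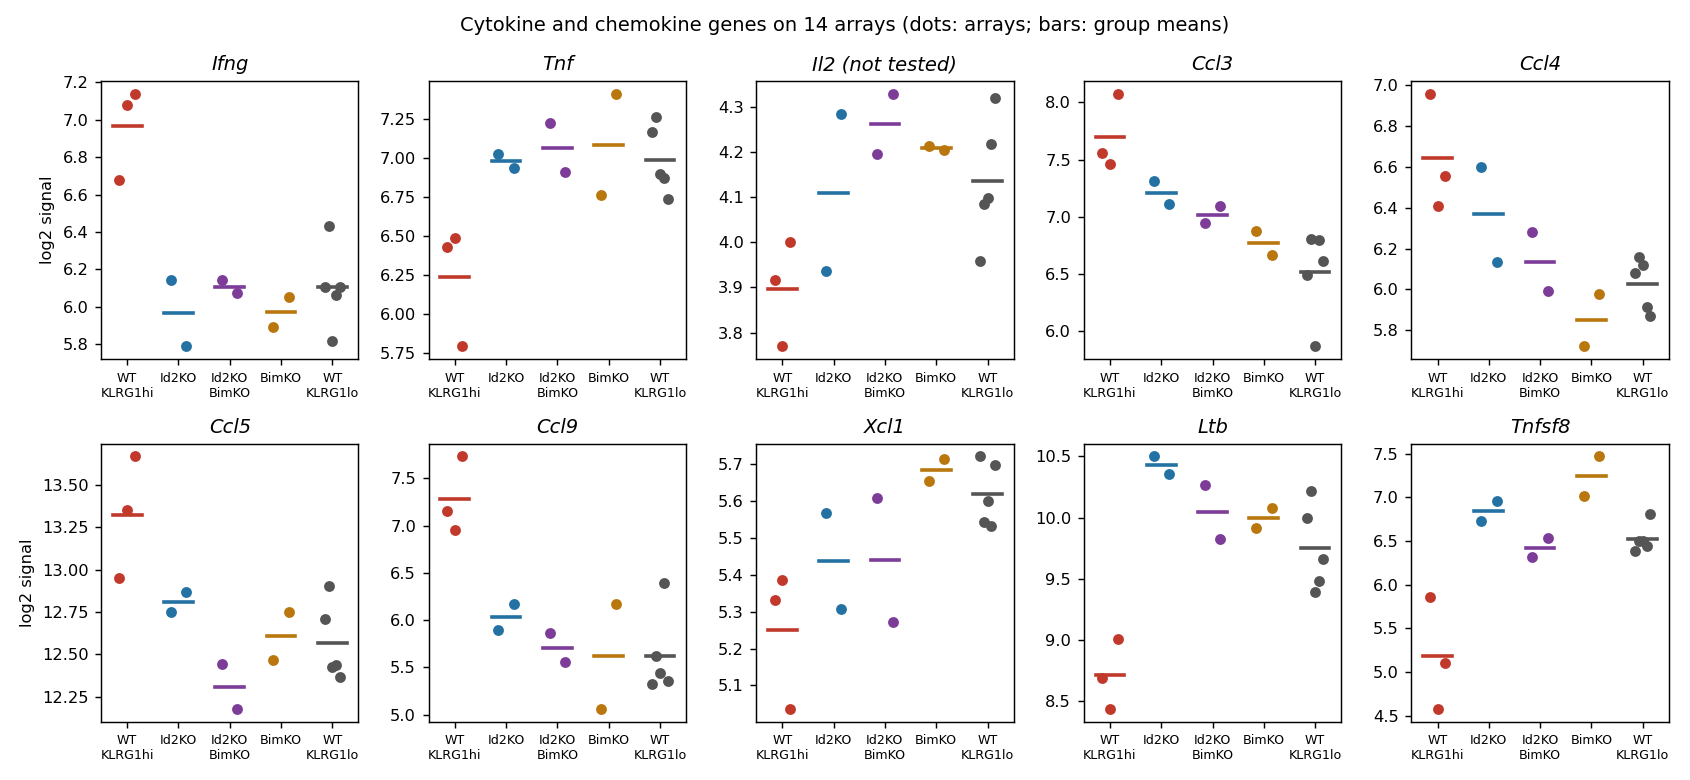
Log2 signal of the 10 cytokine and chemokine genes (1 panel each, vertical axes scaled per gene) on 14 arrays, with groups along the horizontal axis, a dot per array and a bar at each group mean. The KLRG1hi dots lie above all KLRG1lo dots for Ifng, Ccl3, Ccl5 and Ccl9 and below them all for Tnf, Ltb and Tnfsf8.

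Among the cytokines, Ifng read 6.68, 7.08 and 7.14 on the KLRG1hi arrays, against 6.11, 6.43, 5.82, 6.06 and 6.11 on the WT KLRG1lo arrays. The groups did not overlap, and the nearest KLRG1lo array was replicate 2. The difference was 0.86 log2 (SE 0.16, 95% interval 0.52 to 1.20, limma adjusted p = 0.012), a 1.81-fold rise. Ifng missed the threshold without KLRG1hi replicate 2 (0.80, limma adjusted p = 0.119).

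Tnf, the inflammatory cytokine, went the other way in level: it read 6.43, 6.49 and 5.79 on the KLRG1hi arrays, against 7.17, 7.27, 6.90, 6.88 and 6.74 on the WT KLRG1lo arrays. Every KLRG1hi array was lower than every KLRG1lo array. The difference of -0.75 (SE 0.19, 95% interval -1.16 to -0.35) did not pass, at a limma adjusted p of 0.089, and passed with quantile normalization (adjusted p = 0.0473) and with the spread of each array as a covariate (adjusted p = 0.0351).

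Il2 read between 3.77 and 4.33 over the 14 arrays. On every array it lay under the median of probe sets with no gene name, which was 5.01 to 5.39 and stands here for background. No difference is therefore given for Il2.

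Of the chemokines, Ccl9, a CC chemokine of rodents that attracts myeloid cells, had the largest measured difference of the 9 genes tested. It read 7.15, 6.96 and 7.73 on the KLRG1hi arrays, against 5.32, 5.62, 5.44, 6.39 and 5.35 on the WT KLRG1lo arrays. The lowest KLRG1hi array still exceeded the highest KLRG1lo array, replicate 4. The rise was 1.65 (SE 0.26, 95% interval 1.10 to 2.21, limma adjusted p = 0.00371), or 3.15-fold as measured. On 4 of the 5 WT KLRG1lo arrays Ccl9 was near the 40th percentile of the array (5.14 to 5.37), so the size of the rise is uncertain, as is its rank against Tnfsf8.

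Ccl3 read 7.55, 7.47 and 8.08 on the KLRG1hi arrays, against 6.50, 6.80, 5.87, 6.80 and 6.61 on the WT KLRG1lo arrays. Again no array crossed over, and replicate 3 was the lowest of the KLRG1lo arrays. The gene rose by 1.18 (SE 0.20, 95% interval 0.76 to 1.61, limma adjusted p = 0.0056), or 2.27-fold.

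Ccl4, a CC chemokine that activated T cells release, read 6.96, 6.41 and 6.56 on the KLRG1hi arrays, against 6.08, 6.16, 6.12, 5.91 and 5.87 on the WT KLRG1lo arrays. The arrays were separate here too, but the difference of 0.61 (SE 0.16, 95% interval 0.27 to 0.95) did not pass (limma adjusted p = 0.102). With the spread of each array as a covariate it was 0.62 and passed (adjusted p = 0.0337).

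Ccl5, the chemokine also called RANTES, read 12.95, 13.35 and 13.67 on the KLRG1hi arrays, against 12.71, 12.90, 12.42, 12.44 and 12.37 on the WT KLRG1lo arrays. KLRG1hi replicate 1 lay only just above WT KLRG1lo replicate 2. The rise of 0.75 (SE 0.17, 95% interval 0.39 to 1.12) was at the edge of the threshold (limma adjusted p = 0.0491), and it passed in 7 of 17 alternative settings, with adjusted p-values from 0.000898 to 1. It was lost without KLRG1hi replicate 2 or 3, without WT KLRG1lo replicate 1, 3, 4 or 5, and in 4 further settings.

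Xcl1, the chemokine for Xcr1 on dendritic cells, read 5.33, 5.39 and 5.04 on the KLRG1hi arrays, against 5.72, 5.54, 5.60, 5.53 and 5.70 on the WT KLRG1lo arrays. These levels are near the 40th percentile of the arrays, so the size of the difference, -0.37 (SE 0.14, limma adjusted p = 0.435), is uncertain, and it did not pass.

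**Figure D2:**
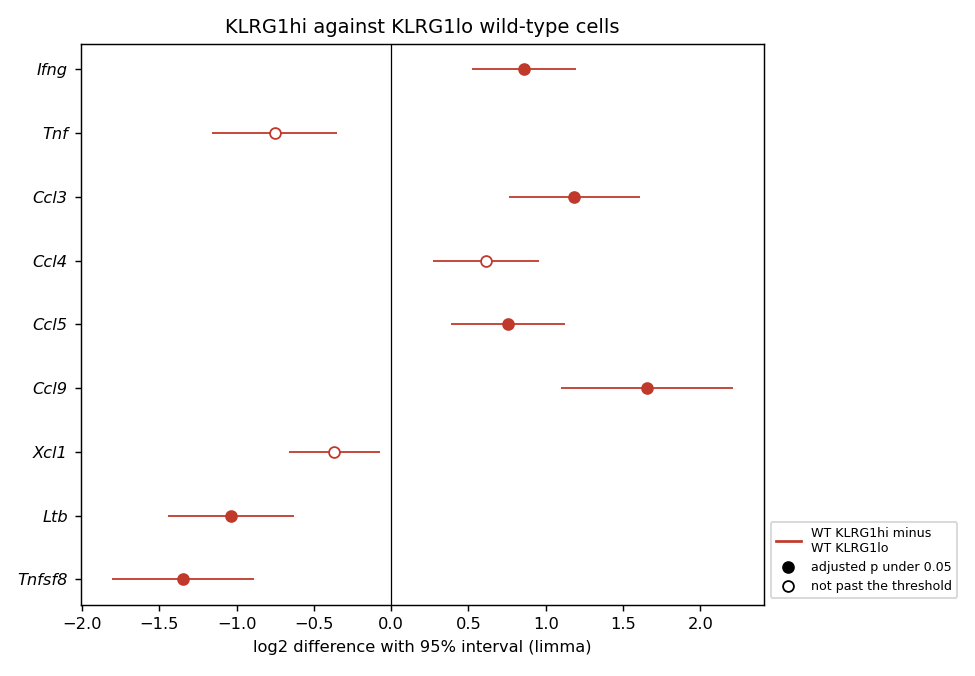
Log2 difference of the 9 tested genes between WT KLRG1hi (3 arrays) and WT KLRG1lo cells (5 arrays), a gene per row, with the 95% interval from limma as a line, filled points past an adjusted p of 0.05 and open points not. Ccl9 lies farthest right at 1.65 and Tnfsf8 farthest left at -1.35.

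Of the TNF-family genes on the list, Ltb and Tnfsf8 were lower in KLRG1hi cells. Ltb, lymphotoxin beta, which anchors lymphotoxin alpha at the cell surface and shapes lymphoid tissue, read 8.69, 8.44 and 9.01 on the KLRG1hi arrays, against 9.99, 10.21, 9.39, 9.48 and 9.66 on the WT KLRG1lo arrays. The KLRG1hi arrays all lay below the KLRG1lo arrays, and the difference was -1.04 (SE 0.19, 95% interval -1.44 to -0.63, limma adjusted p = 0.012). It was -0.90 and missed the threshold without KLRG1hi replicate 2 (adjusted p = 0.141).

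Tnfsf8, the ligand of CD30, read 5.86, 4.58 and 5.10 on the KLRG1hi arrays, against 6.39, 6.50, 6.50, 6.44 and 6.81 on the WT KLRG1lo arrays. KLRG1hi replicates 2 and 3 were under the 40th percentile of their arrays, so the fall is measured down to background there and its size is uncertain. The difference was -1.35 (SE 0.22, 95% interval -1.81 to -0.89, limma adjusted p = 0.00401). It stayed past the threshold in all 17 alternative settings, as did Ccl3 and Ccl9.

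In these bulk samples, fewer cells with a transcript and less of it per cell cannot be told apart. Of 5 NK cell markers tested, 4 had a positive difference, and Klrb1c (2.92) and Gzma (2.34) passed as higher in KLRG1hi cells. Gzma also read 10.04 to 10.63 on the WT KLRG1lo arrays. Eomes went the other way with overlapping groups, at 8.94 to 9.43 on the KLRG1hi arrays and up to 9.73 on the WT KLRG1lo arrays. NK cells also make Ifng and CC chemokines. Summed linear signal of the 7 NK markers was 7123 to 9739 on the KLRG1hi arrays and 1901 to 2737 on the WT KLRG1lo arrays. The NK-defining receptor Ncr1 was at 3.65 to 4.01 on the KLRG1hi arrays and 3.73 to 4.93 on the WT KLRG1lo arrays, under the background median of 5.01 to 5.39. Of 7 monocyte and macrophage markers tested none passed, and the summed signal of 8 was 858 to 879 on the KLRG1hi arrays and 885 to 1385 on the WT KLRG1lo arrays. Of 7 dendritic cell markers 1 was lower, Ccr7 (-1.38), which T cells also express. Of 7 B cell markers none passed, all 7 were lower (median -0.45), and their summed signal was 256 to 342 on the KLRG1hi arrays and 332 to 989 on the WT KLRG1lo arrays. B cells also express Ltb. On WT KLRG1lo replicates 3, 4 and 5 the B cell sums were 751 to 989 and Ltb was 9.39 to 9.66. On replicates 1 and 2 the sums were 342 and 332 and Ltb was 9.99 and 10.21. Of 5 neutrophil markers none passed and all 5 were lower (median -0.18). The part of other cell types in the differences between the WT populations was not tested.

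Location on the chromosome was not used to pick the genes. Ccl5, Ccl9, Ccl3 and Ccl4 lie on chromosome 11 in that order, with 1 other protein-coding gene, Ccl6, between Ccl9 and Ccl3 (RefSeq, GRCm38.p6). Ccl6, a further CC chemokine, was at 0.23 (SE 0.19, limma adjusted p = 0.946) and did not pass, so within this run Ccl5, Ccl9 and Ccl3 rose, and Ccl4 (0.61) and Ccl6 did not pass. Heatr9, the gene before Ccl5, was at 0.57 (adjusted p = 0.377).

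Ltb and Tnf are next to each other on chromosome 17, followed by Lta. Lta, lymphotoxin alpha, was at -0.21 (SE 0.14, limma adjusted p = 0.907), while Lst1 on the other side was at -0.04. Of this run Ltb alone passed among the 5 genes, with Tnf at -0.75. Ifng, Il2, Xcl1 and Tnfsf8 lie on chromosomes 10, 3, 1 and 4.

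**Figure D3:**
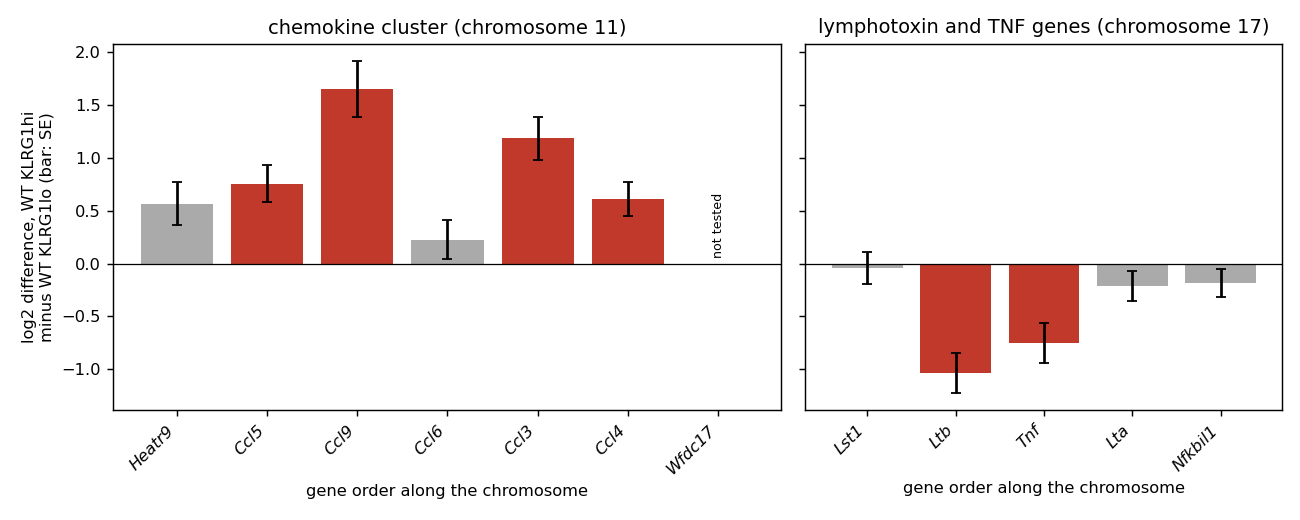
Log2 difference between WT KLRG1hi and WT KLRG1lo cells for protein-coding genes in chromosomal order, with the SE from limma as error bar, listed cytokine and chemokine genes in red and their neighbours in grey. The chemokine genes on chromosome 11 lie at 0.61 to 1.65 except Ccl6 at 0.23, Wfdc17 was not tested, and on chromosome 17 Ltb and Tnf lie at -1.04 and -0.75.

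Other ligands showed few calls between the WT populations. Of 16 other chemokine genes tested none passed in limma, and Ccl19, which guides cells bearing Ccr7, had the smallest unadjusted p (-0.61, unadjusted p = 0.00532, adjusted p = 0.238). None of 16 other cytokine genes passed, with Mif at -0.58 (unadjusted p = 0.000678, adjusted p = 0.0644). Of 9 other TNF-family ligands Fasl, the death ligand of cytotoxic cells, rose by 1.30 (SE 0.26, limma adjusted p = 0.0185) and none fell. Medians of these lists were -0.10, -0.03 and -0.05, beside 0.002 over all genes tested.

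The receptors for these ligands did not pass in the WT comparison: 0 of 9 tested did, and Ifngr1, a chain of the interferon gamma receptor, had the smallest unadjusted p (0.39, unadjusted p = 0.0187, limma adjusted p = 0.46). Of 28 transcription factors that act on cytokine genes, 3 rose and none fell. Bhlhe40, a factor known to sustain interferon gamma in T cells, rose by 1.54 (SE 0.24, adjusted p = 0.00267), Prdm1, which encodes Blimp-1, by 0.95 (SE 0.15) and Tbx21, which encodes T-bet, by 0.83 (SE 0.16, adjusted p = 0.0203). None of 11 regulators of AU-rich cytokine messages passed, with Zc3h12d at -0.33 (unadjusted p = 0.0229, adjusted p = 0.505).

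The genes most like each ligand over the 14 arrays were found by Pearson's r of log2 signal, as a description in which the KLRG1hi arrays carry much of the range. Ifng was most like Bhlhe40 (r = 0.964), then Arsb (0.957) and Hid1 (0.954). Bhlhe40 read 7.75, 8.67 and 8.36 on the KLRG1hi arrays and 6.71, 7.49, 6.43, 6.65 and 6.33 on the WT KLRG1lo arrays, and the KLRG1lo array with the highest Ifng, replicate 2, also had the highest Bhlhe40. Ccl5 was most like Anxa1 (0.964), Itga1 (0.961), a chain of a collagen-binding integrin, and Sytl2 (0.956), a protein of secretory vesicles.

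**Figure D4:**
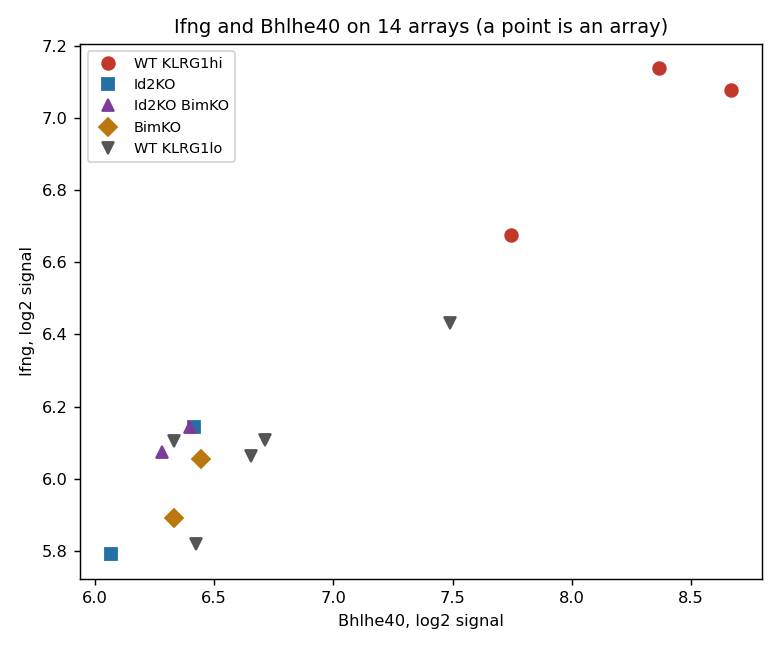
Log2 signal of Ifng (vertical) against Bhlhe40 (horizontal) on 14 arrays, 1 point per array with a symbol per group. The 3 KLRG1hi arrays lie at the upper right, WT KLRG1lo replicate 2 lies between them and the other 10 arrays, and r is 0.964.

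Ltb was most like Emb (r = 0.972), Dapl1 (0.956) and Kbtbd11 (0.954), and Tnf was most like Rps28 (0.858), the lymph node homing receptor gene Ccr7 (0.838) and Dapl1 (0.833). Tnfsf8 was most like St6galnac1 (0.925), H2-Oa (0.897) and Igflr1 (0.887). For Ccl9 the nearest genes were Pacsin2 (0.954), Fry (0.932) and Raph1 (0.921), for Ccl3 Sema4f (0.914), Cep170 (0.910) and Ggcx (0.887), and for Ccl4 Poglut3 (0.906), Atp13a2 (0.871) and E2f2 (0.840). Xcl1 was most like Tnfrsf25 (0.874), Slc12a2 (0.820) and Mrps6 (0.812).

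The knockout arrays gave a second view of the same genes, all within the KLRG1lo gate. KLRG1hi arrays lay above all 11 KLRG1lo arrays, knockouts included, for Ifng, Ccl3, Ccl5 and Ccl9, and below all 11 for Tnf, Ltb and Tnfsf8. Over all genes tested, such separation was seen for 1.41% (above) and 0.859% (below), 2.26% in all. Ccl4, Xcl1 and Il2 overlapped.

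Loss of Id2 was examined first with Bim present by label, Id2KO against WT KLRG1lo cells, and then between the groups labelled as lacking Bim, Id2KOBimKO against BimKO. None of the 9 genes passed in limma in either comparison, where 0.111% and 0% of all genes did. At an unadjusted p under 0.05 there were 2 of the 9 in the first, Ccl3 and Ltb, and 1 in the second, Tnfsf8, beside 18.1% and 1.81% of all genes tested. Of the passing genes in the first, 0.0831% of all genes were higher and 0.0277% lower. The groups were separate for 2 of the 9 in the first, both higher, where 14.2% of all genes were higher and 14.2% lower (28.5% in all). In the second they were separate for 6, of which 3 were higher and 3 lower, where 17.6% and 12% of all genes were (29.7% in all).

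Of 6 markers of CD4 and regulatory T cells Ctla4, which activated CD8+ T cells also express, passed and was higher in Id2KO against WT (1.38), and the summed linear signal of the list was 703 to 762 on the Id2KO arrays and 446 to 525 on the WT KLRG1lo arrays. Of the 6 markers, 4 had a positive difference (list median 0.36) and only Ctla4 passed. Cd4 was at -0.46 and Foxp3 at -0.25. Markers of other blood cells lay lower in the same comparison, with medians of -0.55 for 7 B cell, -0.54 for 5 neutrophil and -0.42 for 7 monocyte and macrophage markers, none of which passed. The median of 5 NK cell markers was -0.50, with 2 positive and none passing. Their list's summed signal was 2363 to 2843 on the Id2KO arrays and 1901 to 2737 on the WT KLRG1lo arrays. All 5 CD8 T cell markers tested had a positive difference (median 0.36), and none passed. The part of other cell types in the values below was not tested.

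Ccl3 read 7.32 and 7.11 on the Id2KO arrays and 6.94 and 7.09 on the Id2KOBimKO arrays, against 6.88 and 6.67 on the BimKO arrays and at most 6.80 on the WT KLRG1lo arrays. Arrays labelled with Id2 loss were thus all higher than the others of the KLRG1lo gate. The share of all genes tested that separate in this way was not counted, so the separation is a description only. The difference was 0.70 in Id2KO against WT (SE 0.23, 95% interval 0.21 to 1.18, limma adjusted p = 0.275) and 0.25 in Id2KOBimKO against BimKO (SE 0.27, adjusted p = 1). The mean of the Id2 effects was 0.47 (SE 0.18, 95% interval 0.09 to 0.85, adjusted p = 0.62) and did not pass.

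Ltb read 10.50 and 10.36 on the Id2KO arrays, above the 9.39 to 10.21 of the WT KLRG1lo arrays. It was 10.27 and 9.82 on the Id2KOBimKO arrays, against 9.91 and 10.08 on the BimKO arrays, which overlap. The differences were 0.68 (SE 0.22, 95% interval 0.21 to 1.15, limma adjusted p = 0.275) and 0.05 (SE 0.26, 95% interval -0.51 to 0.61, adjusted p = 1). The WT KLRG1lo arrays with the widest spread of signal had the highest Ltb, and the Id2KO arrays had a wide spread as well, 2.85 ± 0.02 against 2.60 ± 0.15 in WT KLRG1lo (interquartile range of log2 signal, mean ± SD, n = 2 and n = 5). Over the 16 alternative settings, which include the spread of each array as a covariate, the Id2KO difference of Ltb was 0.28 to 0.80. The part of spread in it was not tested further.

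Ccl4 read 6.60 and 6.14 on the Id2KO arrays and 6.28 and 5.99 on the Id2KOBimKO arrays, against 5.72 and 5.98 on the BimKO arrays. The Id2 effect was 0.34 (SE 0.18) with Bim and 0.29 (SE 0.22) without it by label, neither of which passed (limma adjusted p = 0.285 and 1). Ccl9 read 5.90 and 6.18 on the Id2KO arrays and 5.86 and 5.56 on the Id2KOBimKO arrays, against 5.06 and 6.17 on the BimKO arrays. These values all fall within the range of the WT KLRG1lo and BimKO arrays, and the Id2 effect on Ccl9 was 0.41 (SE 0.30) and 0.09 (SE 0.36).

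Ifng stayed low on every knockout array. It was 6.14 and 5.79 on the Id2KO arrays and 6.14 and 6.07 on the Id2KOBimKO arrays, against 5.89 and 6.06 on the BimKO arrays. The Id2KO difference from WT was -0.14, with a 95% interval of -0.53 to 0.25, and the mean Id2 effect was -0.002 (SE 0.14, 95% interval -0.30 to 0.30). In Id2KOBimKO against BimKO the difference was 0.14 (95% interval -0.33 to 0.60). These intervals do not reach the rise of 0.86 measured between the WT populations. The last of them overlaps the 95% interval of that rise, 0.52 to 1.20.

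Tnf was between 6.76 and 7.41 on the 6 knockout arrays, against 6.74 to 7.27 on the WT KLRG1lo arrays, and its mean Id2 effect was -0.01 (95% interval -0.38 to 0.35). Ccl5 read 12.75 and 12.87 on the Id2KO arrays and 12.44 and 12.18 on the Id2KOBimKO arrays, against 12.47 and 12.75 on the BimKO arrays. Its Id2 effect was 0.24 (SE 0.20) with Bim and -0.30 (SE 0.24) without it by label, and the difference between these, -0.54 (SE 0.31), did not pass (limma adjusted p = 0.726). Xcl1 was at 5.57 and 5.31 on the Id2KO arrays and 5.61 and 5.27 on the Id2KOBimKO arrays, against 5.65 and 5.71 on the BimKO arrays, and its mean Id2 effect was -0.21 (SE 0.12). Il2 was at 3.94 to 4.33 on the knockout arrays, under the background median on each.

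**Figure D5:**
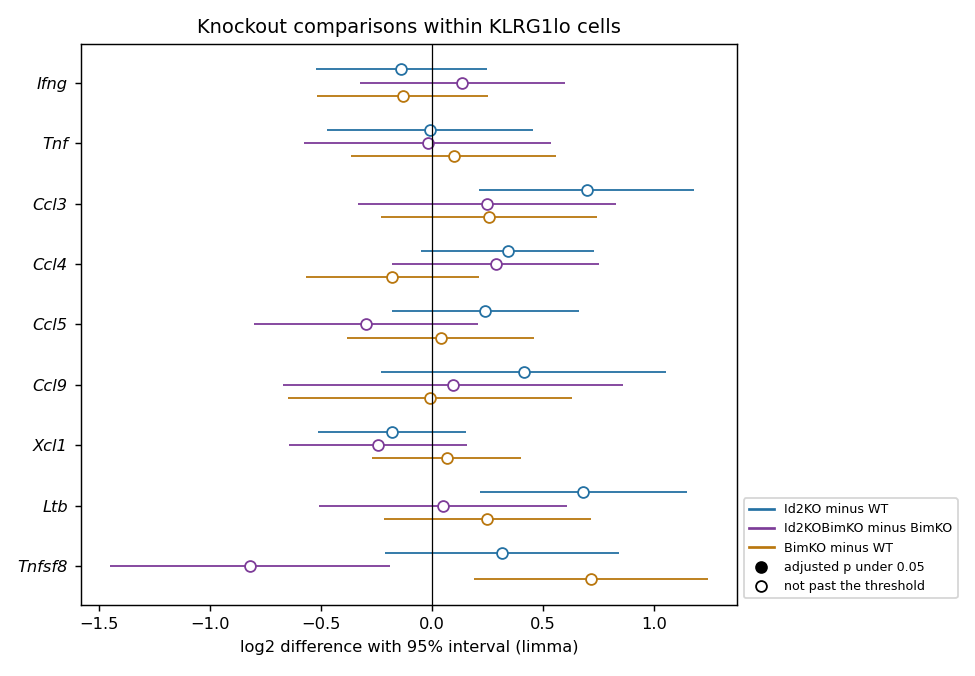
Log2 difference of the 9 tested genes in 3 comparisons within KLRG1lo cells, Id2KO with WT (2 and 5 arrays), Id2KOBimKO with BimKO (2 and 2) and BimKO with WT (2 and 5), with 95% intervals from limma as lines and open points for differences that did not pass. No point is filled, and the widest split between the Id2 comparisons is at Tnfsf8, 0.32 and -0.82.

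Tnfsf8 varied most among the knockouts. It read 6.73 and 6.96 on the Id2KO arrays and 6.31 and 6.53 on the Id2KOBimKO arrays, against 7.01 and 7.47 on the BimKO arrays and 6.39 to 6.81 on the WT KLRG1lo arrays. The BimKO arrays were the highest of all 14, and BimKO exceeded WT KLRG1lo by 0.71 (SE 0.25, 95% interval 0.19 to 1.24, limma adjusted p = 0.657). The Id2 effect was 0.32 (SE 0.25) with Bim and -0.82 (SE 0.30) without it by label. The interaction of Id2 and Bim was -1.14 (SE 0.39, 95% interval -1.96 to -0.31), with an unadjusted p of 0.00958 and a limma adjusted p of 0.726, and it did not pass.

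BimKO against WT KLRG1lo cells gave no passing member in limma, where 0% of all genes passed, and Tnfsf8 was the 1 gene of the 9 with an unadjusted p under 0.05, beside 6.91% of all genes. It was also the 1 whose groups were separate, being higher, where 5.6% of all genes were higher and 6.99% lower (12.6% in all). The other differences lay between -0.18 for Ccl4 and 0.26 for Ccl3. Id2KOBimKO against WT KLRG1lo gave none either, where 0.0623% of all genes passed (0.0485% higher and 0.0139% lower), with Ccl3 at 0.50 (SE 0.23, unadjusted p = 0.043, adjusted p = 0.785). Ccl3 was the 1 gene with separate groups there, being higher, where 5.29% of all genes were higher and 7.27% lower (12.6% in all). These comparisons share the WT arrays with Id2KO against WT. For the mean Id2 effect 0.18% of all genes passed (0.152% higher and 0.0277% lower) and none of the 9, with 3 at an unadjusted p under 0.05 (Ccl3, Ccl4 and Ltb) beside 7.11% of all genes, and for the interaction 0.0277% passed (0.00693% higher and 0.0208% lower) and none of the 9.

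By group mean, WT KLRG1hi cells were first for Ifng, Ccl3, Ccl4, Ccl5 and Ccl9 and last for Tnf, Xcl1, Ltb and Tnfsf8. Among the KLRG1lo groups, means of Ifng ran from 5.97 in Id2KO and BimKO to 6.11 in WT and Id2KOBimKO, and each neighbouring pair of groups overlapped. Ccl3 means were 7.21 ± 0.15 in Id2KO, 7.02 ± 0.11 in Id2KOBimKO, 6.77 ± 0.15 in BimKO (SD, n = 2 each) and 6.52 ± 0.38 in WT (SD, n = 5), and only BimKO and WT overlapped. Tnf, Ccl4, Ccl5 and Xcl1 overlapped between all neighbouring KLRG1lo groups, and Ccl9 did except between Id2KO (6.04 ± 0.20, SD, n = 2) and Id2KOBimKO (5.71 ± 0.21, SD, n = 2). Between neighbouring groups, Ltb overlapped except for Id2KO (10.43 ± 0.10, SD, n = 2) and Id2KOBimKO (10.05 ± 0.31, SD, n = 2). Tnfsf8 did except for BimKO (7.24 ± 0.32, SD, n = 2) and Id2KO (6.84 ± 0.16, SD, n = 2). Apart from Ccl3, groups that are not neighbours by mean are not covered by this ranking. Separation is common in groups of 2 arrays, as in 28.5% of all genes tested for Id2KO against WT.

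In the knockout comparisons the other ligands, receptors and regulators had 1 passing gene, Id2 itself. It fell by 1.13 in Id2KO against WT (SE 0.19, limma adjusted p = 0.0162) and by 1.19 in Id2KOBimKO against WT (SE 0.19, adjusted p = 0.0182), and passed in the mean Id2 effect. With Id2KO against WT the smallest unadjusted p in the other lists belonged to Ccl1 (-0.41), Lif (-0.47), Tnfsf11 (-0.53), Tnfrsf1b (0.51), a TNF receptor, and Rc3h1 (0.40), which encodes Roquin, each at an adjusted p of 0.275. With Id2KOBimKO against BimKO these were Cxcl10 (-0.84), an interferon-induced chemokine, Il1b (-0.46), Fasl (-0.90), Ifngr2 (-0.51), Id2 (-1.10, adjusted p = 0.587) and Zfp36 (0.33), and none passed. With BimKO against WT the gene with the smallest unadjusted p was Ltbr (-0.54, unadjusted p = 0.00676, adjusted p = 0.657), a receptor of lymphotoxin.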

How the data were processed

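The authors deposited, for 14 arrays and 34760 probe sets, an intensity that is linear and not log2, with RMA (no version) and assembly mm9 named in the submitters' processing notes. That it is linear follows from its range, and centring against scanner values is unknown. Per the labels' protocols, RNA was amplified and labelled with biotin. Values were turned into log2 with no offset. Symbols came from the platform's annotation, updated by Entrez number with RefSeq (GRCm38.p6), in which 21553 of 21640 probe sets with 1 gene name were found. Each gene was represented by its probe set of highest mean, and genes exceeding their array's 40th percentile on 2 or more arrays were tested.

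All 14 arrays entered a limma 3.58.1 model (R 4.3.3) with a mean per group and two-sided tests, with 9 residual and 7.99 prior degrees of freedom, and was tested on simulated data. The members, gene lists and alternative settings were chosen with earlier results of these data known. Named were all members, Id2 and Bcl2l11 as checks of the labels (Klrg1 was part of that rule), the 3 genes most correlated with each member, and per list and comparison up to 4 passing genes or the 1 with the smallest unadjusted p. Eif2s3y, the markers and the chromosomal neighbours were added after their values were seen. Names of genes at the top of a list are given for 4 of the comparisons. Alternatives changed the filter, normalization, model, probe set rule, offset and covariates, or left out each array. Replicate numbers were not used to pair arrays in the main model. The deviations of same-numbered arrays from their group means correlated above 0.1 in 10 of 21 pairs (-0.52 to 0.41). Within each knockout group the deviation of an array is the mirror image of the other's, so pairs between knockout groups repeat the same r. The count therefore cannot decide whether the numbers pair the arrays.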

Additional observations from a re-analysis of the deposited data

Results flagged for a closer look

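In the WT KLRG1lo group, the group of 5 arrays in which a distant array can be tested by Dixon's ratio, 2 of the 10 genes had an array far from the others, and chance gives about 1 in 20. Ccl9 was at 6.39 on WT KLRG1lo replicate 4 and at most 5.62 on the other 4 arrays. The macrophage gene Lyz2 was also highest on that array, at 8.44 against 5.26 to 6.75, and on BimKO replicate 2, where Ccl9 was 6.17, it was 7.35. On the KLRG1hi arrays Lyz2 was 4.98 to 5.36 and Ccl9 was 6.96 to 7.73. Ccl9 was also 6.18 on Id2KO replicate 2, where the summed linear signal of monocyte and macrophage markers was 942. That sum was 1385 on WT KLRG1lo replicate 4 and 1131 on BimKO replicate 2. It was 1063 on WT KLRG1lo replicate 2, where Ccl9 was 5.62. A part of macrophages in these Ccl9 values was not tested. Without WT KLRG1lo replicate 4 the rise of Ccl9 in KLRG1hi was 1.85 (limma adjusted p = 0.000673). Tnfsf8 was at 6.81 on WT KLRG1lo replicate 5, with the next array at 6.50, and without that array its difference between KLRG1hi and WT KLRG1lo was -1.28 (limma adjusted p = 0.0161).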

How the results depend on the processing

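Between the WT populations, the 9 tested genes kept their direction in the 17 alternative settings run (16 for Xcl1, which the filter at the 60th percentile removed), and the count of 6 passing genes was 4 to 8 over the 9 settings that kept all arrays and 3 to 6 with an array left out. The 3 came without KLRG1hi replicate 2 (Ccl3, Ccl9 and Tnfsf8), and 8 with array spread as a covariate. With a replicate block on the groups compared 4 passed, as against 5 on these groups without it: Ifng was then at 0.84 (adjusted p = 0.376) and Ccl5 at 0.64 (adjusted p = 1). Whether the numbers pair the arrays is not settled. No member passed in any of the 6 knockout comparisons under any alternative run, replicate block included (0). Settings that leave a knockout group with 1 array assume that it varies like the other groups. Of 1055 values of members under alternatives, 973 kept direction and side of the threshold, and 66, past it in no fit, changed sign. The count of all genes passing, 136 between the WT populations, was 75 to 376 over the settings and 45 to 179 with an array left out. It was 16 for Id2KO against WT (12 to 212, and 4 to 39), 9 for Id2KOBimKO against WT (8 to 59, and 0 to 13), 26 for the mean Id2 effect (23 to 52, and 13 to 31), 0 for Id2KOBimKO against BimKO (up to 4) and for BimKO against WT (up to 8), and 4 for the interaction (3 to 6). The causes were not tested. Levels near background limit what can be said of Il2, Xcl1, Tnfsf8 in KLRG1hi cells and Ccl9 in WT KLRG1lo cells.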

Other observations

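Of 36 pairs of tested members, 20 joined genes on opposite sides of the KLRG1 split, and all 20 correlated negatively over the 14 arrays. The sides were set by the WT comparison of these same arrays, so that negative sign was largely fixed beforehand. After each group's mean was removed, 7 of the 20 remained negative and 13 were positive, with r between -0.436 (Ifng and Tnfsf8) and 0.726 (Ccl5 and Ltb). Ccl5 and Ltb correlated at r = -0.473 over the 14 arrays and at 0.726 after each group's mean was removed, and Ifng and Ltb at -0.705 and 0.629. Others were near 0 within groups, such as Ifng and Xcl1 at 0.009 and Tnf and Ccl9 at 0.027. These are descriptions over 14 arrays that share an array-wide spread of signal, with which Ltb correlated at 0.528, Ccl5 at 0.406 and Ifng at 0.136. The 2 arrays most alike over all genes tested were Id2KO replicate 1 and Id2KOBimKO replicate 1, from different groups (r = 0.992).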
